A study of Mus musculus with 28 samples.

Results

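The cytochrome P450 family 4 genes described here are 10 genes of the mouse liver transcriptome that encode fatty acid omega-hydroxylases: Cyp4a10, Cyp4a12a, Cyp4a12b, Cyp4a14, Cyp4a31, Cyp4a32, Cyp4f13, Cyp4f14, Cyp4f15 and Cyp4v3. They were chosen by symbol, and all 10 were found among the 36072 symbols of the count tables. Livers of 14 female mice, 7 Apoe-/- and 7 Mif-2-/-Apoe-/-, were profiled by prime-seq, a bulk RNA-seq method that counts unique molecular identifiers near the 3′ end of polyadenylated transcripts. Both groups lacked Apoe, the apolipoprotein that clears remnant lipoproteins from blood, and both received a cholesterol-rich high-fat diet (HFD) for 12 weeks from an age of 8 weeks, so neither a wild-type nor a chow-fed liver served as reference and the group labelled WT is Apoe-/-. The double knockout also lacked Mif-2 in all tissues, so that an effect arising in hepatocytes and one arising elsewhere in the body cannot be told apart. Mif-2, the MIF family cytokine also called D-dopachrome tautomerase, is encoded by Ddt. Each mouse had 2 libraries, which were summed.

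Omega-hydroxylases add a hydroxyl group to the terminal carbon of a fatty acid. Alcohol and aldehyde dehydrogenases then turn the product into a dicarboxylic acid, which peroxisomes shorten by beta-oxidation. In rodent liver Cyp4a10 and Cyp4a14 are classical targets of PPAR-alpha, the nuclear receptor that is activated by fatty acids during fasting, whereas Cyp4f enzymes are known for hydroxylating leukotrienes and long-chain fatty acids. Fewer cells of a type and less RNA per cell cannot be told apart in whole-liver libraries.

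Of the 10 genes, 6 lie in a cluster on chromosome 4, and some are so similar that tags could be exchanged between them. On mm10 with GENCODE M21 positions, the cluster ran from Cyp4a12a (chr4:115299046-115332815, + strand) over Cyp4a12b (chr4:115411624-115439034, +), Cyp4a14 (chr4:115486200-115496142, -), Cyp4a10 (chr4:115518264-115533649, +) and Cyp4a31 (chr4:115563649-115579015, +) to Cyp4a32 (chr4:115600969-115621602, +). Coding sequences of Cyp4a12a and Cyp4a12b were identical at 98.5% of aligned bases, those of Cyp4a10 and Cyp4a32 at 97.2%, and those of Cyp4a10 and Cyp4a31 at 96.6%. The last 60 coding bases, stop codon included, are shown as an example of how alike the copies are. In the annotated transcripts 521 bases follow the stop codon in Cyp4a10, 911 in Cyp4a31, 813 in Cyp4a12a and 809 in Cyp4a12b. In these genes the bases shown therefore lie outside the last 500, near which tags are read. In Cyp4a32 0 bases follow the stop codon. Capitals mark positions at which the genes of a group differed.
Cyp4a10: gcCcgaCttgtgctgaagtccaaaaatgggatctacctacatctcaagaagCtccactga
Cyp4a31: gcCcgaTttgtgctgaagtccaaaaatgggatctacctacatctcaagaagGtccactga
Cyp4a32: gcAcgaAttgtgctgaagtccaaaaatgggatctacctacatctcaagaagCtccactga
Cyp4a12a: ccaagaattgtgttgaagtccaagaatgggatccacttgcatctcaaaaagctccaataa
Cyp4a12b: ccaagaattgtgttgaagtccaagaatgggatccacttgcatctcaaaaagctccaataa
The first 3 genes differed at 3 of these 60 positions and the Cyp4a12 pair at none. In the last 500 bases of the longest coding transcript of each gene, 37.0% of all stretches of 50 bases in Cyp4a12a also occurred in Cyp4a12b. The share was 66.7% for Cyp4a32, whose annotated transcript ends at its stop codon, 6.0% for Cyp4a10 and for Cyp4a31, and 0.0% for Cyp4a14 and Cyp4v3. Cyp4a10 and Cyp4a14 counts are therefore separable at nearly all of this window, while counts of Cyp4a32, Cyp4a12a and Cyp4a12b are uncertain as to the copy they came from.

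Libraries summed per mouse held 1336787 to 2715022 counts. All 28 libraries were closest to the other library of their own mouse. Ddt, the deleted gene, fell from 105 ± 23.2 CPM, counts scaled to library size (mean ± SD, n = 7), to 4.92 ± 2.23 CPM, or by 4.50 ± 0.23 (SE) on the log2 scale (edgeR quasi-likelihood adjusted p = 3.12e-11), and the groups did not overlap. Alb was at 13930 to 35540 CPM in every liver, and the kidney marker Umod was at 0 in 13 of the 14 mice. In 3 respects single livers stood apart. Mif-2-/-Apoe-/- mice 4 and 6 carried 19690 and 6860 CPM of the acute-phase gene Saa1, against 224 to 691 CPM in the other 12 mice. Mif-2-/-Apoe-/- mouse 3 carried 1732 CPM of the skeletal muscle gene Acta1, against at most 13.0 CPM elsewhere. Apoe-/- mice 2 and 6 stood apart in sex-dependent genes, as described with Cyp4a12a.

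Of the 10 genes, 7 passed edgeR's filter on low counts, and 0 of these 7 passed the test between the groups. In the same test 21 of 9684 genes, 0.217%, passed at an adjusted p under 0.05, 0.134% with a higher and 0.0826% with a lower level in the double knockout. At an unadjusted p under 0.05 there were 2 of the 7, Cyp4a10 with a lower and Cyp4f14 with a higher estimate, where 12.9% of all genes tested lay (7.37% higher and 5.49% lower). DESeq2 also called 0 members in each of 3 runs, which gave an adjusted p to 7, 6 and 6 of the 10. On the same genes it called 0.702% of all genes (0.444% higher and 0.258% lower). On all genes with a count it called 2.97% (2.36% higher and 0.615% lower), and with the gene filter of the study 1.82% (1.39% higher and 0.437% lower). Cyp4a12a was not in the first run and got no adjusted p in the other 2. Its log2 fold change was -3.95 in both (DESeq2 unadjusted p = 0.000348 and 0.000344). The CPM ranges of the groups overlapped for each of the 10 genes; 0.279% of all genes tested had ranges that did not, 0.103% higher and 0.176% lower. On data simulated for this comparison with 9684 genes, 37 of 50 genes changed 2-fold were called and 6 of 50 changed 1.5-fold. The common biological coefficient of variation, the spread between mice fitted over all genes, was 0.238. The SD of CPM divided by its mean is another measure, which also holds counting noise. It was 31.1% in Apoe-/- and 33.4% in the double knockout for Cyp4a10, but 18.3% and 18.6% for Cyp4f13. How often genes as variable as Cyp4a10 would be called was not tested, so the simulated shares may be too high for them. The median log2 fold change over all genes was 0.01, and -0.10 when library totals replaced the TMM scaling.

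**Figure D1:**
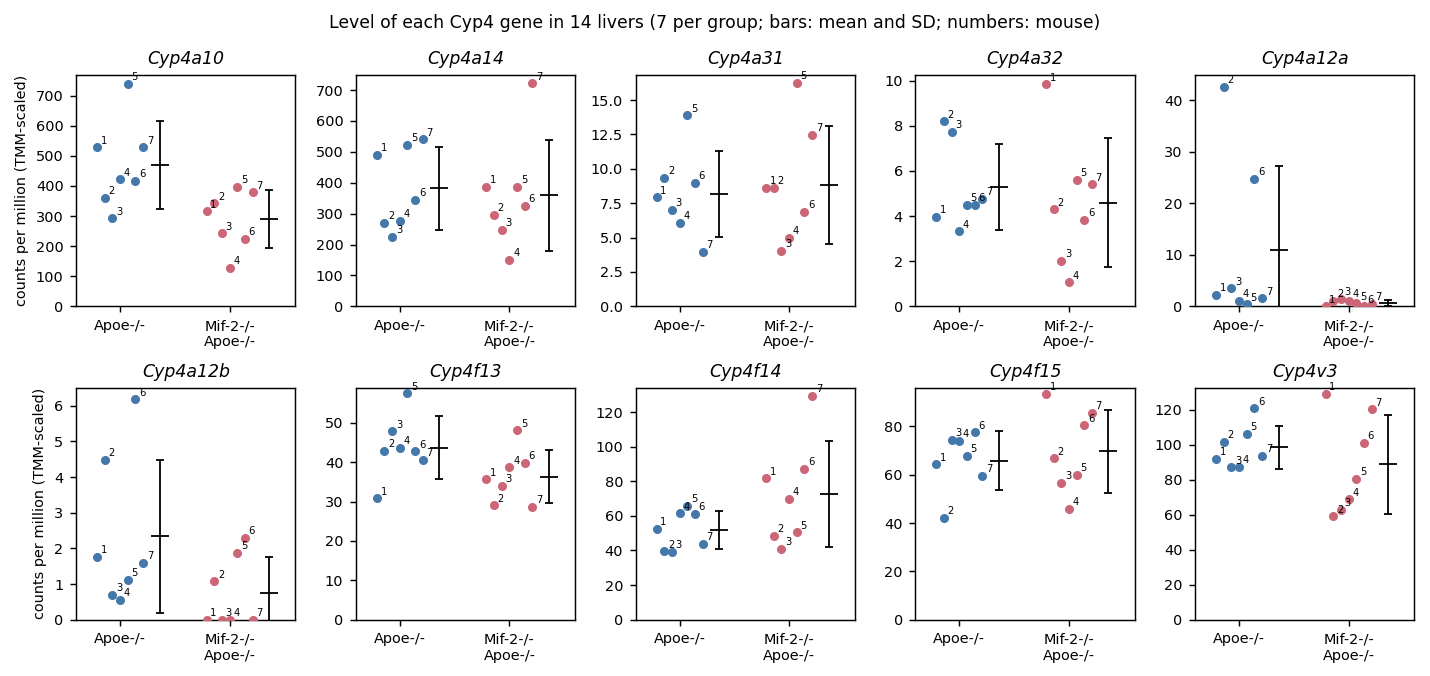
TMM-scaled CPM of each Cyp4 gene (vertical axis, from 0) in 7 Apoe-/- and 7 Mif-2-/-Apoe-/- livers; points are mice with their number, bars give the mean and SD, cut at 0. The Cyp4a10 points of the double knockout sit at 127 to 397 CPM, below the Apoe-/- mean of 469.7 CPM, and Cyp4a12a is far above the rest only in Apoe-/- mice 2 and 6.

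Cyp4a10, an inducible omega-hydroxylase of medium-chain fatty acids, had the lowest p of the 7 tested genes. Its CPM in the Apoe-/- mice 1 to 7 were 528, 361, 293, 422, 739, 417 and 529. In the Mif-2-/-Apoe-/- mice 1 to 7 they were 316, 342, 242, 127, 397, 224 and 379. All 7 double knockout livers lay below the Apoe-/- mean and 3 lay below the lowest Apoe-/- liver, yet the ranges overlapped. The mean was 469.7 ± 146 CPM against 289.7 ± 96.7 CPM (SD, n = 7 each). The fit put the difference at -0.70 ± 0.23 (SE) on the log2 scale, a level 0.616 times that of Apoe-/- with a 95% interval of 0.443 to 0.856, but it failed the correction over all genes (edgeR adjusted p = 0.201; unadjusted p = 0.00577). Both livers with high acute-phase genes were the lowest in Cyp4a10, and without them the mean of the remaining 5 double knockout mice was 335 ± 60.9 CPM and the log2 fold change -0.48 (edgeR adjusted p = 0.453). The part of the acute-phase state in this estimate was not tested.

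Cyp4a14, the neighbouring omega-hydroxylase gene, which PPAR-alpha also induces, had similar means in both groups. Its CPM in the Apoe-/- mice 1 to 7 were 490.2, 269, 226, 277, 523, 346 and 539.9. In the Mif-2-/-Apoe-/- mice 1 to 7 they were 387, 296, 248, 150.3, 387, 326 and 722. The double knockout held both the lowest liver, mouse 4, and the highest, mouse 7, of the whole series, and the remaining 5 lay within the Apoe-/- range. The mean was 382 ± 133 CPM in Apoe-/- and 359.5 ± 179.8 CPM in the double knockout, and the fitted log2 difference was -0.09 ± 0.27 (SE), with a 95% interval that reached from -0.64 to 0.47 (edgeR adjusted p = 0.916). The sign turned without any one of Apoe-/- mice 5 and 7 and double knockout mouse 4, and the value went to -0.35 without double knockout mouse 7.

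**Figure D2:**
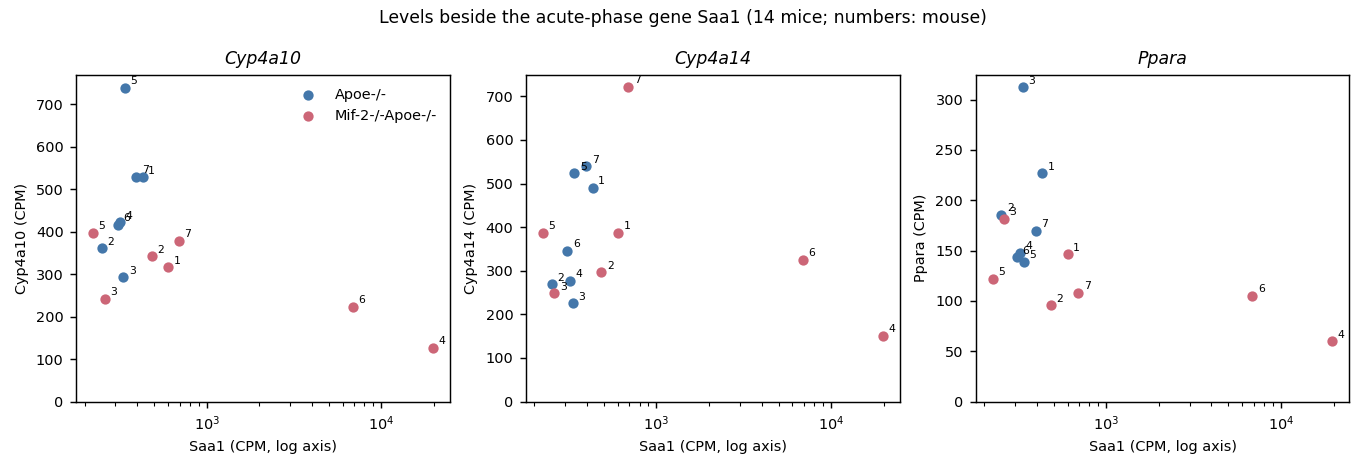
Level of Cyp4a10, Cyp4a14 and Ppara (vertical axes, TMM-scaled CPM from 0) against that of the acute-phase gene Saa1 (horizontal log axis, CPM) in the 14 livers, coloured by group and numbered by mouse. Mif-2-/-Apoe-/- mice 4 and 6 stand at 19690 and 6860 CPM of Saa1 and have the lowest Cyp4a10, while mouse 6 lies inside the Apoe-/- range of Cyp4a14 at 326 CPM.

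The balance between the 2 neighbouring genes was examined per mouse. The ratio of Cyp4a10 to Cyp4a14 CPM in the Apoe-/- mice 1 to 7 was 1.08, 1.34, 1.30, 1.52, 1.41, 1.21 and 0.979. In the Mif-2-/-Apoe-/- mice 1 to 7 it was 0.816, 1.16, 0.976, 0.846, 1.03, 0.687 and 0.526. All 7 double knockout livers lay below the Apoe-/- mean and 5 lay below the lowest Apoe-/- liver. The mean ratio was 1.26 ± 0.190 in Apoe-/- and 0.862 ± 0.213 in the double knockout (SD, n = 7 each), a difference of -0.58 in the log2 ratio (two-sided exact permutation test, p = 0.00408; the smallest p that 7 against 7 allows is 0.000583). Because this ratio was picked after its values were seen, the ratios of all 21 pairs of the 7 tested genes were examined. After Benjamini-Hochberg correction over the 21 exact tests, 3 of them stayed under 0.05: Cyp4a10 to Cyp4a14 (adjusted exact p = 0.0367), Cyp4a10 to Cyp4f14 with a log2 difference of -1.14 (raw exact p = 0.005245), and Cyp4f14 to Cyp4v3 with 0.61 (raw exact p = 0.00466), all with that same adjusted value. Cyp4a10 or Cyp4f14 took part in each, and the pairs are not independent. A ratio does not depend on the scaling of the libraries, and it shows that the members of a pair differed unequally, not that either was unchanged. Without double knockout mice 4 and 6 the log2 differences were -0.52, -0.78 and 0.52 (unadjusted exact p = 0.0114, 0.0152 and 0.0164), and none of the 21 ratios passed after correction (adjusted exact p = 0.115 for each of the 3). Without Apoe-/- mice 2 and 6 the adjusted exact p was 0.0994 for each. With 1 mouse left out, each of the 3 ratios missed the threshold in 9 of 14 cases, at an adjusted exact p of up to 0.0979, and Cyp4f14 to Cyp4v3 in the duplicate libraries alone had an unadjusted exact p of 0.0641.

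**Figure D3:**
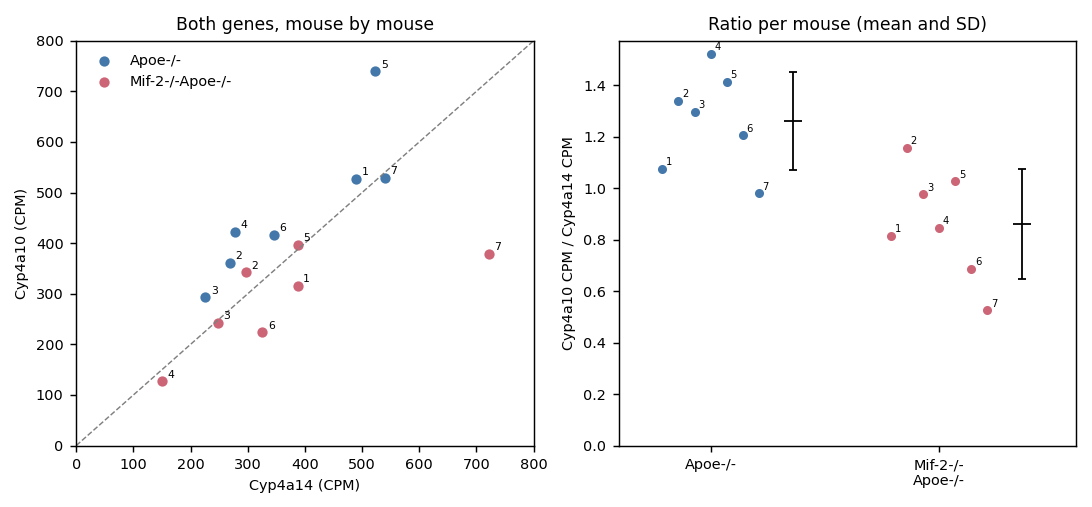
Left, Cyp4a10 against Cyp4a14 (TMM-scaled CPM) in each of the 14 livers, with a dashed line at equal levels; right, the ratio of both per mouse with the mean and SD of each group. The Apoe-/- mice have ratios of 0.979 to 1.52 and the Mif-2-/-Apoe-/- mice of 0.526 to 1.16.

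Cyp4a12a, the androgen- and growth hormone-dependent omega-hydroxylase that in mice makes much of the vasoactive lipid 20-HETE and is a male-biased gene, was nearly silent except in 2 livers. Its counts in the Apoe-/- mice ranged from 1 to 114 with a median of 5, and in the Mif-2-/-Apoe-/- mice from 0 to 3 with a median of 1. Apoe-/- mouse 2 had 114 counts (42.5 CPM) and Apoe-/- mouse 6 had 44 (24.7 CPM), whereas the other 12 livers held 0 to 5. Both libraries of each of these mice showed it, with 53 and 61 counts in mouse 2 and 23 and 21 in mouse 6. The near-identical Cyp4a12b was highest in the same livers, with 12 and 11 counts against 0 to 4 elsewhere. The mean level of Cyp4a12a was 10.9 ± 16.4 CPM in Apoe-/- and 0.690 ± 0.572 CPM in the double knockout (two-sided exact permutation test, p = 0.0175, 0.0524 after correction over the 3 genes below the filter), and that of Cyp4a12b was 2.34 ± 2.14 against 0.750 ± 1.00 CPM (exact permutation p = 0.103). The unadjusted exact p was 0.166 to 0.200 when any single double knockout mouse was left out. In these omissions the difference in means stayed at -10.32 to -10.06 CPM. With any single Apoe-/- mouse left out, the unadjusted exact p was 0.00117 to 0.0175 and the difference -11.93 to -4.90 CPM. The difference in means was -10.2 CPM with all mice and -1.07 CPM without Apoe-/- mice 2 and 6 (exact p = 0.0581 for the latter), so most of its size rests on these livers.

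In the same pair of livers some other sex-dependent genes lay at the edge of the range of the series. The female-biased gene Cux2, a transcription factor, was at 2.24 CPM in Apoe-/- mouse 2 and at 3.37 CPM in Apoe-/- mouse 6, below the 5.33 to 33.4 CPM of the other 12 livers. The male-biased pheromone carrier Mup20 was at 1540 and 517 CPM in these livers, above the 60.4 to 409 CPM of the other 12. The male-biased Hsd3b5 had 1 and 5 counts against 0 to 3 in the others, and the male-biased Elovl3 lay inside the range, with 9.70 and 9.00 CPM against 1.07 to 14.0 CPM in the others. Xist, the RNA of the inactive X chromosome, was at 241 and 218 CPM, within the 118 to 307 CPM of the other 12 livers. These genes were picked for this comparison after their values were seen, and the part of sex hormones or growth hormone in the Cyp4a12a counts was not tested.

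Cyp4a31 and Cyp4a32, the close copies of Cyp4a10, were detected at few counts. Cyp4a31 ranged from 5 to 37 counts in Apoe-/- (median 16) and from 8 to 26 in the double knockout (median 14), with overlapping CPM ranges. The estimate on the log2 scale was 0.03 ± 0.30 (SE; edgeR adjusted p = 0.978), with a sign that turned to -0.09 when library totals replaced the TMM scaling. Cyp4a32 ranged from 6 to 22 counts in Apoe-/- (median 9) and from 3 to 16 in the double knockout (median 5), and its mean was 5.29 ± 1.90 against 4.59 ± 2.86 CPM (two-sided exact permutation test, p = 0.600). Counted together as 1 feature, Cyp4a10, Cyp4a31 and Cyp4a32 gave a log2 fold change of -0.67 (edgeR adjusted p = 0.215).

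The 3 Cyp4f genes are neighbours on chromosome 17: Cyp4f15 (chr17:32685627-32703352, +), Cyp4f14 (chr17:32905070-32917342, -) and Cyp4f13 (chr17:32924688-32947402, -). Cyp4f14, which inactivates the neutrophil attractant leukotriene B4, ranged from 39.4 to 65.7 CPM in Apoe-/- (median 52.5) and from 41.1 to 129.5 CPM in the double knockout (median 70.0). Of the double knockout livers, 4 were above every Apoe-/- liver, these being mice 1, 4, 6 and 7, and 3 lay inside the Apoe-/- range. The mean was 51.9 ± 11.1 CPM against 72.7 ± 30.6 CPM, and the log2 difference of 0.48 ± 0.22 (SE), with 95% bounds of 0.04 and 0.93, failed the correction over all genes (edgeR adjusted p = 0.340; unadjusted p = 0.0348). Without double knockout mouse 7 it was 0.28, and without mice 4 and 6 it was 0.45.

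Cyp4f13, a fatty acid and leukotriene hydroxylase, had an estimate of the opposite sign. It ranged from 30.9 to 57.5 CPM in Apoe-/- (median 42.9) and from 28.7 to 48.1 CPM in the double knockout (median 35.65), and 6 of 7 double knockout livers lay below the Apoe-/- mean. On the log2 scale the estimate was -0.27 ± 0.15 (SE; edgeR adjusted p = 0.450). Cyp4f15 ranged from 42.2 to 77.6 CPM (median 68.0) and from 45.8 to 93.4 CPM (median 66.8), and its log2 estimate of 0.08 ± 0.17 (SE; edgeR adjusted p = 0.863) became -0.02 with library totals.

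The promoters of the 3 Cyp4f genes, 250 bases before to 50 after an annotated start, are shown because these neighbours share a sequence element. Its part in the levels of these genes was not tested. Capitals mark ATTGG, the reverse complement of the CCAAT box, on either strand.
Cyp4f13, chr17:32947312-32947611, - strand: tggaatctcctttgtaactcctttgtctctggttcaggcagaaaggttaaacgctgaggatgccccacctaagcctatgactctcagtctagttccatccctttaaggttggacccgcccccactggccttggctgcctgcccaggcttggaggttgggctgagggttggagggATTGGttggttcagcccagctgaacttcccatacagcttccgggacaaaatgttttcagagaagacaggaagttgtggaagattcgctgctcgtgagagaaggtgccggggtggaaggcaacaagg
Cyp4f14, chr17:32917293-32917592, - strand: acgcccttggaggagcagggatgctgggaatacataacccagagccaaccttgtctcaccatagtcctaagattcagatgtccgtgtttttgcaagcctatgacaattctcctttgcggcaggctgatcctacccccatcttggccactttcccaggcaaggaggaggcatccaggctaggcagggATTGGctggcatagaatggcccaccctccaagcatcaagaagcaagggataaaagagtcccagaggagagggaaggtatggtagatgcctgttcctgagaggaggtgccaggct
Cyp4f15, chr17:32685409-32685708, + strand: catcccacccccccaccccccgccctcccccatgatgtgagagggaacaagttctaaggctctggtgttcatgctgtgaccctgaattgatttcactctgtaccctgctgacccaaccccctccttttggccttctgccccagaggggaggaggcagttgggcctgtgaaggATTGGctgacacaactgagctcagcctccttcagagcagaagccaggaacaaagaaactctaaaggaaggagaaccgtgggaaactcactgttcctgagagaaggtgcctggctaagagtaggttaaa
The sequences are from RefSeq (GRCm38.p6), whose promoter table matched 5 of the 10 genes, Cyp4a32, Cyp4f13, Cyp4f14, Cyp4f15 and Cyp4v3, with 8 starts in all. Each of the 3 promoters shown held GGATTGG on the strand of the gene, from base -78 in Cyp4f13, base -66 in Cyp4f14 and base -80 in Cyp4f15 relative to the start. Cyp4f14 had further annotated starts whose promoters overlap the one shown or each other, so the 8 are not separate promoters. From these starts GGATTGG began at base -79 or -52, and the promoter chr17:32917038-32917337 did not hold it. This heptamer or its reverse complement CCAATCC is in 4.72% of the 32851 promoters of the table and its core ATTGG, or CCAAT, in 37.4%; the heptamer was picked after reading these promoters. AGGTCA, the half-site bound by nuclear receptors, searched on both strands, was in 0 of the 8 member promoters and in 16.3% of all.

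Cyp4v3 (chr8:45304944-45333216, -), the mouse counterpart of the gene mutated in the human retinal disease Bietti crystalline dystrophy, had the lowest coefficient of variation of the 10 genes in Apoe-/-. It ranged from 87.2 to 121 CPM in Apoe-/- (median 93.8) and from 59.2 to 129 CPM in the double knockout (median 80.6). Of the double knockout livers, 4 were below every Apoe-/- liver and 1 was above all of them, so that the double knockout livers spanned the Apoe-/- range on both sides. The fitted difference was -0.15 ± 0.17 (SE) on the log2 scale (edgeR adjusted p = 0.735). That coefficient was 12.3% in Apoe-/- and 31.7% in the double knockout; the difference in spread was not tested.

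**Figure D4:**
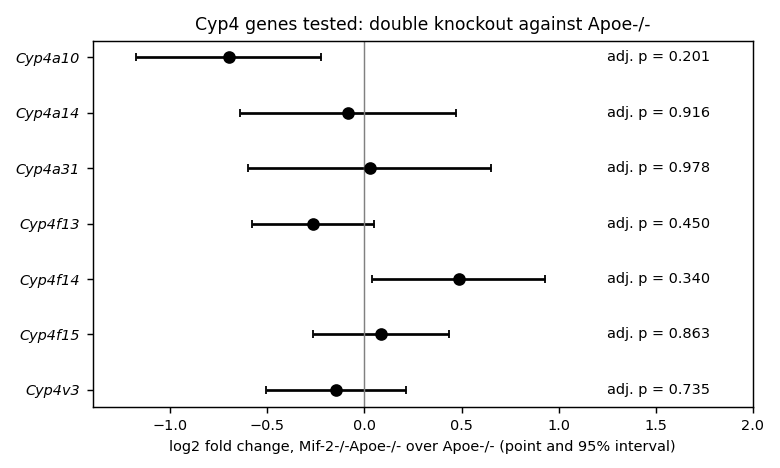
Log2 fold change (horizontal axis) of the 7 Cyp4 genes that passed the filter, Mif-2-/-Apoe-/- over Apoe-/-, from edgeR with 95% intervals and adjusted p over all 9684 genes. Only the intervals of Cyp4a10, at -0.70, and Cyp4f14, at 0.48, leave out 0 before correction.

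Across the 14 livers Cyp4a10 and Cyp4a14 varied together. Of the 21 pairs of tested members, 1 passed a correlation test after Benjamini-Hochberg correction, and this was the pair (Pearson r = 0.753, permutation p = 0.00204, adjusted 0.0428; Spearman rho = 0.684, permutation p = 0.00873, adjusted 0.183). Without double knockout mouse 4 and Apoe-/- mouse 5, the livers farthest from the median of Cyp4a10, r was 0.548. Within groups r was 0.905 over 7 Apoe-/- mice and 0.830 over 7 double knockout mice. Leaving out 1 mouse gave 0.601, without double knockout mouse 4, to 0.853, without mouse 7. The adjusted permutation p missed the threshold in 9 of these 14 omissions, of 4 double knockout and 5 Apoe-/- mice, and was highest at 0.173 without double knockout mouse 4, while r stayed positive in each. The other 20 pairs had r from -0.268 to 0.573, the highest being Cyp4f14 with Cyp4f15 (permutation adjusted p = 0.238; rho = 0.587, adjusted 0.185; 0.433 without double knockout mice 6 and 7; 0.564 in Apoe-/- and 0.609 in the double knockout).

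**Figure D5:**
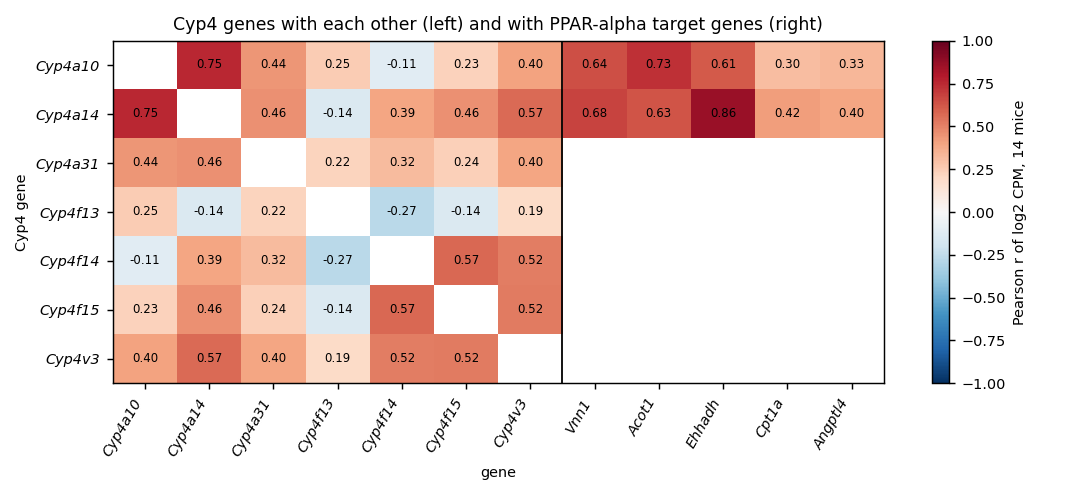
Pearson r of log2 CPM over 14 livers between the 7 tested Cyp4 genes (left block) and between Cyp4a10 or Cyp4a14 and 5 PPAR-alpha target genes (right block); red is positive and blue negative. Cyp4a10 with Cyp4a14 has r = 0.753, and Cyp4a14 with Ehhadh has the highest value of the right block, 0.864.

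Both genes also varied with some other PPAR-alpha targets. Of the 10 pairs with 5 such genes given here, 6 passed by Pearson's r at a permutation p under 0.05 after adjustment over 14 pairs. Cyp4a14 with Ehhadh, the peroxisomal bifunctional enzyme of beta-oxidation, gave r = 0.864 (permutation p = 0.00013, adjusted 0.00182; rho = 0.798, adjusted 0.0129) and 0.650 without double knockout mice 4 and 7. Cyp4a14 with Vnn1, a pantetheinase, gave r = 0.675 (permutation adjusted p = 0.0238; rho = 0.732, adjusted 0.0149) and 0.676 without the same mice. Cyp4a10 gave r = 0.731 with Acot1, a fatty acyl-CoA thioesterase (permutation adjusted p = 0.0120; rho = 0.723, adjusted 0.0149; 0.702 without double knockout mouse 4 and Apoe-/- mouse 5). Its r with Ehhadh of 0.615 (permutation adjusted p = 0.0422; rho = 0.604, adjusted 0.0577) went to 0.422 without those 2 mice. Cyp4a14 with Acot1 gave r = 0.631 (permutation adjusted p = 0.0318) and rho = 0.582, the latter not past the threshold (permutation adjusted p = 0.0652). With 1 mouse left out, the adjusted permutation p missed the threshold in 9 of 14 cases for Cyp4a10 with Ehhadh, in 4 for Cyp4a14 with Acot1, in 3 for Cyp4a10 with Vnn1, in 1 each for Cyp4a10 with Acot1 and Cyp4a14 with Vnn1, and in 0 for Cyp4a14 with Ehhadh. Angptl4, a lipoprotein lipase inhibitor, gave r = 0.329 with Cyp4a10 and 0.396 with Cyp4a14, neither past the threshold (permutation adjusted p = 0.319 and 0.223). Cpt1a likewise gave 0.305 and 0.417 (permutation adjusted p = 0.341 and 0.212). The r within groups follows, Apoe-/- first and the double knockout second. For Cyp4a10 it was 0.814 and 0.401 with Vnn1, 0.670 and 0.768 with Acot1, and 0.617 and 0.894 with Ehhadh. For Cyp4a14 it was 0.833 and 0.584 with Vnn1, 0.900 and 0.418 with Acot1, and 0.706 and 0.977 with Ehhadh.

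Among the 9677 other genes tested, those closest to Cyp4a10 after removal of the group means included Selenoi, Rmdn2, Acot3 and Acadm, with r of 0.895 down to 0.828 over 14 mice. Closest to Cyp4a14 were Lonp2, Ehhadh, Pear1, Acadm and Crot, with r of 0.916 down to 0.834. Lonp2 is a peroxisomal protease, Crot the peroxisomal carnitine octanoyltransferase and Acadm the mitochondrial medium-chain acyl-CoA dehydrogenase. Closest to Cyp4f14 were Iah1, Gpx1, Hebp1, Rdh7 and Gjb1, with r of 0.948 down to 0.922, beside 1 unnamed gene model; none of these 5 was among the genes closest to the Cyp4a pair. They are given as a description without p, since they are the highest of many and share the libraries and their depth.

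Genes of the PPAR-alpha pathway gave no call by the main edgeR test or by DESeq2. For comparison with the counts below, 7.37% of all genes tested were higher and 5.49% lower at an unadjusted edgeR p under 0.05. Ppara itself, the gene of the receptor, was at 189 ± 62.4 CPM in Apoe-/- and 117 ± 38.7 CPM in the double knockout (-0.69 ± 0.22 SE on the log2 scale; edgeR adjusted p = 0.188), with double knockout mouse 4 lowest at 60.04 CPM and an estimate of -0.52 without mice 4 and 6. Of 16 tested PPAR-alpha and cofactor genes 0 passed the test, 2 had an unadjusted p under 0.05, both lower, and the genes with the smallest p beside Ppara were Pparg at -0.68 (edgeR adjusted p = 0.143) and Rxra at 0.23. Of 42 tested PPAR-alpha target genes, a list without the 10 Cyp4 genes, 0 passed, 3 higher and 3 lower had an unadjusted p under 0.05, 20 had a positive and 22 a negative estimate, and the median log2 fold change was -0.02 beside 0.01 over all genes tested. Within it Vnn1 was at -0.34, Acot1 at -0.60, Ehhadh at 0.23, Cpt1a at 0.02 and Angptl4 at -0.11, and Pdk4 was below the filter with means of 3.76 ± 1.95 and 5.43 ± 8.66 CPM. The smallest p of that list belonged to Pex11a at -0.69 (edgeR adjusted p = 0.144), Cyp8b1 at -0.90 and Aldh3a2 at -0.48. With no filter on low counts edgeR called 3 genes of the list, Pex11a (adjusted p = 0.0330), Cyp8b1 (adjusted p = 0.000361) and Fabp3.

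The steps around the hydroxylation were likewise without a call by the main edgeR test. The counts at an unadjusted p under 0.05 stand beside 12.9% of all genes tested, 7.37% higher and 5.49% lower. Of 16 tested genes of omega-oxidation after the hydroxylase, 0 passed and 2 had an unadjusted p under 0.05, both lower, with a median of 0.01; Aldh1a1 was at -0.67 (edgeR adjusted p = 0.143) and Aldh3a2, the fatty aldehyde dehydrogenase, at -0.48 (edgeR adjusted p = 0.315). By DESeq2 Aldh1a1 passed in all 3 runs (adjusted p = 0.0391 on the same genes). Of 28 tested genes of peroxisomal beta-oxidation, 0 passed by the main edgeR test or by DESeq2, 1, Pex11a, passed by edgeR with no filter, and 2 higher and 3 lower had an unadjusted p under 0.05, with a median of 0.03 and the smallest p for Pex11a, Hacl1 at 0.55 and Nudt19 at 0.52. Por, the reductase that passes electrons to all microsomal P450 enzymes, was at 253 ± 58.8 CPM against 392 ± 125 CPM (0.63 ± 0.20 SE on the log2 scale; edgeR adjusted p = 0.192). Of 8 tested electron transfer partners 0 passed by edgeR and 1, Por, had an unadjusted p under 0.05; Por passed in 1 of the 3 DESeq2 runs, that on all genes with a count (adjusted p = 0.0426). Of 12 tested leukotriene and eicosanoid genes 0 passed by either tool, and 2 higher and 1 lower had an unadjusted p under 0.05. The only other family 4 genes past the filter, 2 of 13, were Cyp4b1 at 0.34 and Cyp4f17 at -0.22, neither called.

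Among the other lists, 2 of 35 tested growth hormone and sex-biased genes rose in the double knockout, the female-biased Cyp2b13 with 2.90 and Cyp2b9 with 3.00 on the log2 scale (edgeR adjusted p = 0.0107 and 0.0235), the latter not past the threshold on 7 of 14 occasions when a single mouse was omitted, with 0.0821 as the highest adjusted p. Without Apoe-/- mice 2 and 6 neither passed (edgeR adjusted p = 0.0521 for Cyp2b13 and 0.106 for Cyp2b9). Of 22 tested fasting and feeding genes 0 passed by the main edgeR test. At an unadjusted p under 0.05 there were 5, all higher, where 7.37% of all genes tested were higher. The median of the list was 0.18, with the smallest p for Igfbp1 at 1.20 (adjusted p = 0.0537 by edgeR and 0.00616 by DESeq2 on the same genes). Igfbp1 passed in all 3 DESeq2 runs, Srebf1 in 2 of them (adjusted p = 0.0485 with the gene filter of the study and 0.0376 on all genes with a count) and Tat in 1 (adjusted p = 0.0482 on all genes with a count). With no filter on low counts edgeR called 4 genes of this list, Igfbp1, Irs2, Srebf1 and Tat. The summed level of 14 hepatocyte genes ranged from 49090 to 67990 CPM in Apoe-/- and from 50780 to 76580 CPM in the double knockout. The 17 Kupffer and macrophage genes ranged from 1042 to 1431 and from 911 to 1940 CPM, with Timd4 higher and Cx3cr1 lower by the main edgeR test (adjusted p = 0.0373 and 0.0235). Timd4 missed the threshold in 9 and Cx3cr1 in 4 of 14 omissions of a single mouse, and both missed it without double knockout mice 4 and 6 (edgeR adjusted p = 0.215 and 0.0971), without Apoe-/- mice 2 and 6 (0.196 and 0.0550) and with the replicate block (0.123 and 0.0706). The 24 periportal genes, of which Apoa4 alone was called by the main edgeR test and was lower, ranged from 7936 to 10590 and from 8354 to 22080 CPM. The 24 pericentral genes ranged from 2923 to 5659 and from 3544 to 6552 CPM. Periportal estimates were positive in 19 genes and negative in 5, with a median of 0.33 on the log2 scale. At an unadjusted edgeR p under 0.05, 9 periportal genes were higher and 3 lower. Of the periportal genes DESeq2 called Apoa4 and Hsd17b13 lower in all 3 runs, Cps1 and Arg1 higher in 2 runs, and Hal, Tat and Fbp1 higher on all genes with a count. The 18 lymphocyte and neutrophil genes ranged from 24.3 to 43.3 CPM in Apoe-/- and from 23.7 to 145.5 CPM in the double knockout, where S100a8 was at 39.4 and 56.7 CPM in mice 4 and 6 and at most 13.4 CPM elsewhere. The part of cell composition in the Cyp4 levels was not tested.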

How the data were processed

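The 28 deposited files hold whole-number UMI counts per gene symbol, made by the authors with zUMIs from prime-seq reads aligned to mm10 (per the labels and the study's methods). The 2 libraries of each mouse were summed. edgeR 4.0.16 (R 4.3.3; filterByExpr, TMM scaling, quasi-likelihood F test, Benjamini-Hochberg over all genes, 0.05) compared the groups, and CPM are TMM-scaled. The study's model also held an RNA integrity number, which is not given in the sources used here. Members below the filter, and ratios, were compared by two-sided exact permutation over 3432 assignments. Correlations used log2 CPM (prior count 2) with 100000 permutations. Members, lists and the named-gene rule (members, called genes or the 3 of smallest p per list, a fixed set of pathway genes, and the 5 most alike) were chosen with earlier results of these data known; members of cell type lists without calls are given as sums. The p-values of group comparisons judge a difference against the spread between mice. Those of correlations come from permuting the values of 1 gene over the mice. DESeq2 1.42.0, other scalings, filters, single libraries, summed paralogs, a replicate block and left-out mice were the alternatives; the ratio tests, 2 of the 3 DESeq2 runs and the omission of 2 mice at a time were chosen after seeing the data. The model was tested on simulated data. The mouse numbers of the titles did not pair mice across groups: 2 of 7 equal-numbered pairs had deviations correlated above 0.1. Results for some genes named by the rule are not reported here.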

Additional observations from a re-analysis of the deposited data

Results flagged for a closer look

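Cyp4a14 in Mif-2-/-Apoe-/- mouse 7, at 721.5 CPM, stood far above the next of the 7 double knockout livers, at 387 CPM: the gap made up 0.585 of the range of the group, past Dixon's critical value for 7 samples at the 95% level. Chance marks about 1 in 20 groups in this way, and 22 groups were examined. The same liver had the highest Cyp4f14, at 129.5 CPM, and the lowest ratio of Cyp4a10 to Cyp4a14, at 0.526. Its Ehhadh level, at 271 CPM, was also the highest of the 14.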

How the results depend on the processing

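Of the 9684 genes, 21 passed the main test; DESeq2 called 68 on the same genes, 116 with its own filtering of all genes with a count and 96 with the gene filter of the study, edgeR 344 with no filter, 11 on the first libraries and 12 without Apoe-/- mice 2 and 6, and 7 (without Mif-2-/-Apoe-/- mouse 6) to 118 (without Mif-2-/-Apoe-/- mouse 2) when single mice were omitted. With no filter 1 Cyp4 member was called, Cyp4a12a. No other alternative called one, but the DESeq2 runs gave Cyp4a12a no adjusted p. With the replicate block by mouse number, 14 genes and 0 members were called and the Cyp4a10 log2 fold change was -0.72 (edgeR adjusted p = 0.240). Cyp4a10 stayed negative throughout. The ratio of Cyp4f14 to Cyp4v3 was 0.49 in the duplicate libraries alone (exact p = 0.0641).

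Estimates near 0 changed sign, and the cause was not tested. Without Mif-2-/-Apoe-/- mice 4 and 6, Cyp4a14 was at 0.10 and the Cyp4a32 difference at 0.155 CPM. With library totals, Cyp4a31 was at -0.091, Cyp4f15 at -0.0245 and Cpt1a at -0.11 on the log2 scale. The duplicate libraries gave -0.056 for Cyp4f15, the first libraries -0.041 for Cpt1a and 0.1003 CPM for the Cyp4a32 difference, and the omission of Apoe-/- mice 2 and 6 -0.005 for Cpt1a. Omitting single mice gave -0.35 to 0.060 for Cyp4a14, -0.19 to 0.22 for Cyp4a31, -0.0015 to 0.18 for Cyp4f15, -0.11 to 0.40 for Ehhadh, -0.041 to 0.10 for Cpt1a and -0.18 to 0.032 for Angptl4. It also gave r of -0.0115 to 0.408 for Cyp4a10 with Cpt1a. At these depths Cyp4a12a, Cyp4a12b, Cyp4a31 and Cyp4a32 rest on few counts per mouse.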
